A study of Saccharomyces cerevisiae with 12 samples.

Results

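Cst6, a basic leucine zipper (bZIP) transcription factor of Saccharomyces cerevisiae, was read by calling cards, an assay in which a factor fused to Sir4 steers the Ty5 retrotransposon into nearby DNA. The data described here are the library labelled Cst6p, 1 of 12 libraries in the series, with its 54385 listed insertions, and the background set that the authors placed beside it, with 84109 insertions. Members were chosen by label alone. Values per region come from the table of 4532 intergenic regions deposited with that library, in which 37782 Cst6 insertions and 53808 background insertions fell. Of these regions, 725 held 5 or more Cst6 insertions, and 2699 held 5 or more in Cst6 or in the background and were tested.

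Cells were BY4741 with SIR4 deleted (sir4D). They carried a plasmid for Cst6 with Sir4 fused at its C-terminus and a plasmid with a barcoded Ty5 that bears HIS3 and is driven by GAL1/10. They were grown from 1 clone for 3 days on galactose, then for 2 days on YPD and for 3 days without histidine and with 5-FOA. The libraries used for comparison below were Gcr1, Gcr2 and TEF1p-Tye7, which share the BY4741 sir4D genotype and the Sir4 fusion. The remaining 8 libraries, used only for the order of shares, carry a further deletion by their labels. It is cbf1D in the Cbf1 and NPAS2 constructs, tye7D in Tye7 and gcr2D in TEF1p-Tye7 gcr2D, and the chimera of Cbf1 with a Tye7 basic region is labelled BY4742. The sources used here do not say what the background set was made from. The same set accompanies 3 of the 12 libraries, Cst6, Gcr1 and Gcr2, and the other 9 have another set. With 1 library there is no replicate, so each test compares 2 sets of insertions and not 2 conditions. Intervals are exact at 95% and cover counting error only. Tests and intervals treat each listed insertion as independent, yet 20.3% of Cst6 positions were listed more than once. Where such lines repeat 1 insertion event, p-values are too small and intervals too narrow.

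Cst6, also called Aca2, belongs to the ATF/CREB group of bZIP factors and has a close paralog, Aca1. It is known for activating NCE103, the gene of carbonic anhydrase, when carbon dioxide is scarce, and for roles in growth on oleate and other nonfermentable carbon sources and in chromosome stability. Carbonic anhydrase turns carbon dioxide into bicarbonate, the substrate of the carboxylases that start fatty acid synthesis, replenish oxaloacetate and make carbamoyl phosphate. In calling cards an insertion records that the fusion was near a site at some time during growth on galactose, and the share of a library's insertions in a region measures how often that region was used.

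The insertions of Cst6 were concentrated. Cst6 placed 69.5% of its insertions (interval 69.1 to 69.9%) inside the intergenic regions, against 64.0% (63.6 to 64.3%) in the background (Fisher's exact test, two-sided, p = 1.59e-99). The difference was 5.50 percentage points, and 1.08 (Fisher's exact test, p = 0.00421) with Cst6 positions within 5 bp merged to 1. Its 10 fullest regions took 26.7% of intergenic insertions, whereas the 10 fullest regions of the background took 2.55% of background insertions. The 50 fullest took 54.2% in Cst6 and 9.56% in the background. A median region held 1 Cst6 insertion and 6 background insertions, and 2149 regions held no Cst6 insertion against 499 with none in the background.

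A region was called where Fisher's exact test on insertions inside and outside it, adjusted over the 2699 regions by the Benjamini-Hochberg method, gave p under 0.05 and the ratio of shares, with 1 insertion added to each count, passed 2 in either direction. Cst6 was higher than its background in 148 regions (5.48% of those tested) and lower in 1032 (38.2%). The 148 higher regions held 68.8% of Cst6 intergenic insertions and 9.01% of the background. All other regions were left with 31.2% of Cst6 insertions against 91.0% of the background, a shift of -1.55 on the log2 scale. Scaled to insertions outside the 148, Cst6 was lower in 24 regions (0.889%) and higher in 286, so the share of higher calls among all calls was 12.5% unscaled and 92.3% scaled. All 148 higher calls and 24 of the 1032 lower calls remained after scaling. Scaling left out the regions called higher in these same data and raised every log2 ratio by the same amount. Higher calls were thus bound to remain and lower calls could only become fewer, so the kept higher calls are no support. The median log2 ratio over the tested regions was -1.81 unscaled and -0.27 scaled. Ratios below are unscaled. Merging Cst6 positions within 5 bp could not be done for the background. It lowered most ratios of the fullest regions, and merged values are given beside them. Positions were chained in steps of at most 5 bp, so a dense stretch of any length became 1 insertion. By construction counts fall most where Cst6 positions are densest, so a call lost with merging cannot be read as an absent excess.

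**Figure D1:**
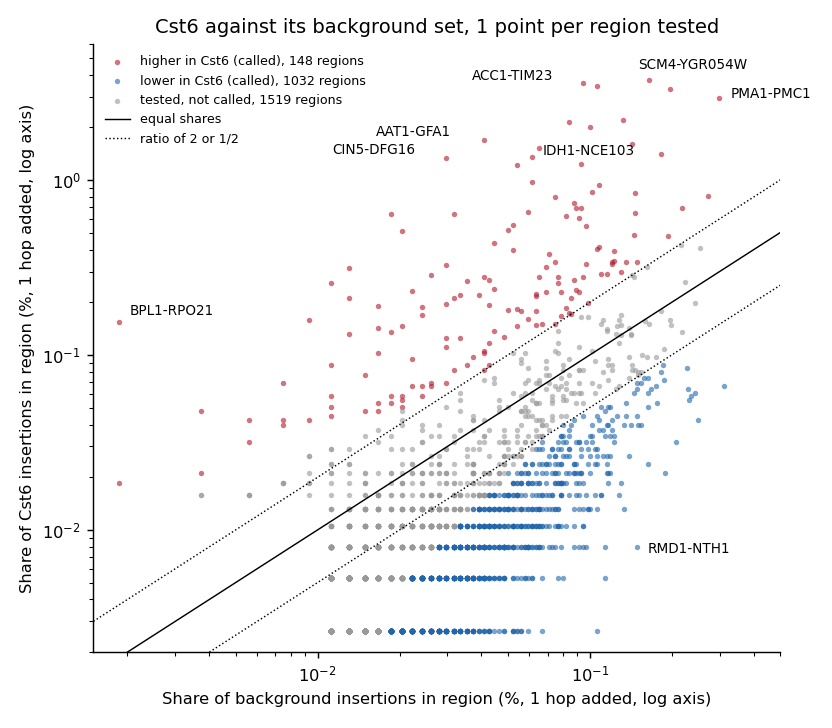
Share of Cst6 insertions (vertical) against share of background insertions (horizontal) in each of the 2699 regions tested, both in percent with 1 insertion added and on log axes. The 148 regions called higher reach 3.74% of Cst6 insertions at SCM4-YGR054W, and most of the 1032 called lower lie in rows of a few Cst6 insertions.

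Regions upstream of genes that make or use bicarbonate were among the fullest of the Cst6 data. Of 6 tested regions upstream of carbonic anhydrase and bicarbonate-using carboxylase genes, 4 were higher and 1 was lower, against 5.48% and 38.2% of all regions. Their median log2 ratio was 3.64, against -1.81 over all regions tested. Together the 7 listed regions of these genes held 6.36% of Cst6 insertions and 0.323% of the background, a ratio of 19.7 (16.9 to 23.1). Without ACC1-TIM23, the fullest of them, the ratio was 12.1. NCE103 was known as a Cst6 target when the list was drawn up, and the list was chosen with results of these data known.

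ACC1-TIM23 lies between ACC1, which encodes the acetyl-CoA carboxylase that commits carbon to fatty acids, and TIM23, which encodes the channel of the mitochondrial inner membrane for imported proteins (chromosome 14, 661376 to 662915, in the coordinates of the files, whose genome build is not named). It held 1352 Cst6 insertions (3.58%, interval 3.39 to 3.77%) and 50 background insertions (0.0929%, 0.0690 to 0.122%), a ratio of 38.5 (29.0 to 52.1). The 3 sorted blocks, or runs, that make up the Cst6 list gave 6.01, 3.71 and 2.71%, all above the background. The region is divergent, so insertions in it lie upstream of both genes. Of its insertions, 50% fell within 192 bp, from 753 to 944 bp from the ACC1 border and from 597 to 788 bp from the TIM23 border.

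IDH1-NCE103 serves carbonic anhydrase and IDH1, a subunit of isocitrate dehydrogenase (chromosome 14, 559003 to 559815). It held 512 Cst6 insertions (1.36%) and 32 background insertions (0.0595%), a ratio of 22.8 (15.9 to 33.7, adjusted p = 9.66e-152, Fisher's exact test). The runs gave 3.84, 0.869 and 0.744%, each above the background and with run 1 the highest. Insertions leaned to the NCE103 side, with 50% of them in 93 bp that lie 188 to 280 bp from the NCE103 border.

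PUS2-PYC1 is upstream of PYC1, a pyruvate carboxylase that refills the citric acid cycle (chromosome 7, 384769 to 385199). It held 367 Cst6 insertions (0.971%) and 32 background insertions (0.0595%), a ratio of 16.3 (11.4 to 24.2), with 1.23, 0.977 and 0.884% in the 3 runs. Upstream of the paralog PYC2, PYC2-PDB1 held 4 Cst6 and 29 background insertions and was called lower, though not after scaling. The log2 ratio was 3.99 at PUS2-PYC1 and -2.07 at PYC2-PDB1, the latter near the median of -1.81 over all regions tested. When Cst6 positions within 5 bp were merged to 1, which could not be done for the background, IDH1-NCE103 (log2 ratio 1.26) and PUS2-PYC1 (0.82) lost their calls, and 2 of the 4 regions stayed higher. ACC1-TIM23 kept its call, but its log2 ratio was 1.24 merged and 5.24 unmerged. With each position counted once it was 4.16.

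The gap just before CPA1, which encodes a subunit of carbamoyl phosphate synthetase, held 0 Cst6 and 0 background insertions and was not tested. Beyond that gap lies YOR302W, the short reading frame in the leader of the CPA1 transcript that encodes the arginine attenuator peptide. RAX1-YOR302W (chromosome 15, 882270 to 882763) held 468 Cst6 insertions (1.24%) and 49 background insertions (0.0911%), a ratio of 13.6 (10.1 to 18.7), and is not part of the list count. It lost its call when positions within 5 bp were merged (log2 ratio 0.50). HFA1, the mitochondrial acetyl-CoA carboxylase, had 3 Cst6 and 8 background insertions upstream and was not called, and DUR1,2 had no region.

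**Figure D2:**
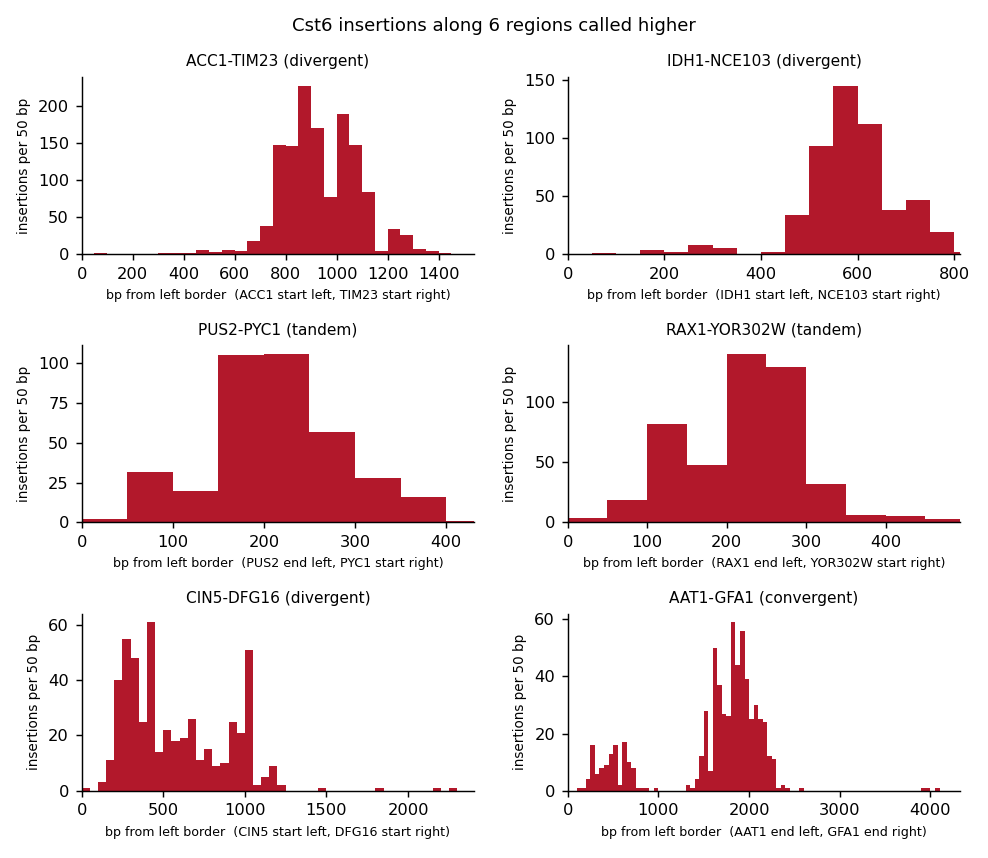
Cst6 insertions per 50 bp along 6 regions called higher, with distance in bp from the left border of the region on the horizontal axis. In ACC1-TIM23, IDH1-NCE103, PUS2-PYC1 and RAX1-YOR302W the insertions pile up in stretches where 50% of them take 192, 93, 79 and 76 bp, and in CIN5-DFG16 and AAT1-GFA1 they spread over 302 and 368 bp.

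Regions upstream of other bZIP genes were divided. Of 11 tested regions upstream of ATF/CREB and other bZIP genes, 2 were higher (18.2%, against 5.48% of all regions). Lower were 4 of the 11, near the 38.2% lower over all regions. The median log2 ratio was -1.66 against -1.81 over all regions. CIN5-DFG16 (chromosome 15, 384420 to 386825), which spans YOR029W and lies upstream of the salt and drug tolerance factor CIN5 and of DFG16, a sensor of the Rim101 pathway, held 507 Cst6 insertions (1.34%) against 15 in the background (0.0279%). Its ratio of 48.1 (28.9 to 86.6) was the highest among the regions named here that had background insertions. The runs gave 1.00, 1.37 and 1.44%, close to each other, and the log2 ratio was 3.96 with positions within 5 bp merged and 5.50 without. The region on the other side of CIN5, STI1-CIN5, held 191 against 10 insertions, a ratio of 27.2 (14.5 to 57.6), so that the fusion's insertions flanked that gene at both ends.

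YAP6-SWM1, upstream of YAP6, a relative of CIN5, held 233 Cst6 insertions and 43 background insertions (ratio 7.72, 5.55 to 10.9). Of the Cst6 insertions, 50% lay 788 to 887 bp from the YAP6 border and 50 to 149 bp from that of SWM1, a gene whose interval is also full of insertions. Merging positions within 5 bp ended that call (log2 ratio 1.12). The 4 lower regions lay upstream of ACA1, HAC1, SKO1 and YAP1, with 9, 1, 1 and 4 Cst6 insertions against 61, 17, 14 and 27 in the background. No bZIP region was lower after scaling. PRM2-CST6, upstream of CST6 itself, held 0 Cst6 and 3 background insertions, under the minimum for a test. GCN4-YEA6, upstream of the amino acid starvation factor GCN4, held 55 and 106 insertions and was not called.

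Lipid and metal genes shared the next strongest regions. Of 16 tested regions upstream of fatty acid synthesis, elongation and activation genes, 3 were higher and 4 lower (median log2 ratio -1.17 unscaled and 0.38 scaled). Over all tested regions 5.48% were higher and 38.2% lower, with medians of -1.81 and -0.27, and the same shares and medians stand behind each list that follows. COT1-FAA1 (chromosome 15, 907552 to 909340) stands between COT1, a vacuolar importer of zinc and cobalt, and FAA1, the main acyl-CoA synthetase for imported fatty acids. It held 1306 Cst6 insertions (3.46%) and 56 background insertions (0.104%), a ratio of 33.2 (25.4 to 44.2), with 3.82, 3.77 and 3.20% in the 3 runs. Its densest stretch, 225 bp with 50% of the insertions, lies 428 to 652 bp from the FAA1 border, and the unlisted gene YOR316C-A lies inside the region. Its log2 ratio was 5.03, and 2.01 with positions within 5 bp merged. ELO1-CDC6, upstream of the fatty acid elongase ELO1, was also higher, with 68 against 28 insertions and a ratio of 3.46 (2.20 to 5.58), but not with insertions of 5 or more reads (log2 ratio 0.87) or with positions within 5 bp merged (0.66). ZRC1-FAA4 is the matching arrangement for the paralogs of these genes, since ZRC1 is also a vacuolar zinc importer and FAA4 also an acyl-CoA synthetase. It held 11 Cst6 and 111 background insertions and was called lower, also after scaling.

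Of 23 tested regions upstream of zinc, cobalt, iron and copper transport genes, 3 were higher and 7 lower, 1 of them after scaling (median -1.07 unscaled and 0.47 scaled, against -1.81 and -0.27 over all regions). Besides COT1-FAA1 these included ADH4-ZRT1, upstream of the high-affinity zinc importer of the cell surface, with 245 against 78 insertions (ratio 4.47, 3.45 to 5.85). Its log2 ratio was 2.15, and 1.00 with positions within 5 bp merged. Pooled over the metal list the ratio of shares was 3.67, and 0.998 without COT1-FAA1. Of 20 tested regions of beta-oxidation and peroxisome genes 1 (5.00%, against 5.48% of all regions) was higher, PXA2-MTR2, upstream of a peroxisomal fatty acid importer, with 60 against 31 insertions (ratio 2.76, 1.76 to 4.40; log2 ratio 0.83 and no call with the other background set), while 5 were lower and none after scaling. In PXA2-MTR2 50% of the Cst6 insertions lay 3704 to 3867 bp from the PXA2 border and 93 to 256 bp from that of MTR2, with FAT3 in the same region.

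By count, glycerol, osmotic and salt response genes held the most higher regions of any list, while the carboxylase list had the largest share higher (66.7%). Of 22 tested regions upstream of glycerol, osmotic and salt response genes, 6 were higher (27.3%, against 5.48% of all regions) and 7 lower, none of them after scaling. The median log2 ratio was -0.49, against -1.81 over all regions. MAM3-GPD2 (chromosome 15, 216137 to 217126), upstream of the glycerol-3-phosphate dehydrogenase GPD2 and of MAM3, held 758 Cst6 insertions (2.01%) and 53 background insertions (0.0985%), a ratio of 20.4 (15.4 to 27.4). Its log2 ratio was 4.32, and 0.76 with positions within 5 bp merged, which ended the call. VHR1-GPP1, upstream of the glycerol-1-phosphatase GPP1, which acts in the next step, held 353 against 57 (ratio 8.82, 6.65 to 11.9), and lost its call with that merging too (log2 ratio 1.06). GPD1, the paralog of GPD2 that responds to osmotic stress, had 8 against 56 insertions upstream and was called lower, not so after scaling.

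Regulators and effectors of the stress response completed that group. FCY1-ROX1, upstream of the hypoxic repressor ROX1, held 320 Cst6 and 54 background insertions (ratio 8.44, 6.31 to 11.5). MDJ1-HSP12, upstream of the membrane-stabilising stress protein HSP12, held 194 against 26 (10.6, 7.04 to 16.7), PDC6-CTT1, upstream of the cytosolic catalase CTT1, 205 against 51 (5.72, 4.19 to 7.94), and MSN2-CCS1, upstream of the general stress factor MSN2, 150 against 27 (7.91, 5.23 to 12.4). MDJ1-HSP12 held 0.513% in Cst6 and 0.276% in Gcr1, a difference that was not called. MSN4, the paralog of MSN2, had 14 against 61 insertions and was called lower, but not after scaling. Of 22 tested regions upstream of stress and hypoxia genes, 4 were higher (18.2%, against 5.48% of all regions) and 10 lower, none of them after scaling (median -1.35). The regions of ROX1, CTT1 and HSP12 count in both lists. The other higher one is SNF11-TPS2, upstream of the trehalose-6-phosphate phosphatase TPS2, with 54 against 28 insertions (ratio 2.75, 1.71 to 4.50). That call was lost with insertions of 5 or more reads (log2 ratio 0.80).

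Central carbon genes had a few higher regions and many lower ones that mostly did not stay lower after scaling. Of 23 tested regions of glycolysis and ethanol fermentation genes, 3 were higher (13.0%, against 5.48% of all regions) and 13 lower, 1 of them after scaling. Their median was -1.36 unscaled and 0.18 scaled, against -1.81 and -0.27 over all regions. The higher ones were ISF1-ADH3 (305 against 145 insertions, ratio 3.00, 2.45 to 3.68), PDC6-CTT1, and ADH1-PHM7 (183 against 77, ratio 3.38, 2.58 to 4.48). ADH1-PHM7 lies upstream of ADH1, the gene of the main ethanol-forming dehydrogenase, and of PHM7, and spans YOL085C. There 50% of the Cst6 insertions lay 1345 to 1435 bp from the ADH1 border and 329 to 419 bp from that of PHM7. The runs gave 0.0706, 0.622 and 0.561% at ADH1-PHM7, so run 1 was below the 0.143% of the background. This was the widest spread among the 50 fullest higher regions, at 8.82-fold. Of 23 tested regions of glyoxylate cycle, gluconeogenesis and nonfermentable carbon genes, 2 were higher (8.70%) and 11 lower, none of them after scaling (median -1.43 unscaled and 0.12 scaled). The higher ones serve the acetaldehyde dehydrogenases, NUD1-ALD4 with 46 against 15 insertions (ratio 4.37, 2.39 to 8.42, call lost with positions within 5 bp merged at a log2 ratio of 1.52) and TIM50-ALD6 with 128 against 64 (2.85, 2.09 to 3.91). TIM50-ALD6 lost its call without run 3, with a log2 ratio of 0.90.

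Hexose transport and glucose sensing genes had 0 higher and 12 lower regions of 18 tested, none of them lower after scaling (median -1.96). Over all tested regions 5.48% were higher and 38.2% lower, with a median of -1.81. Respiratory chain and ATP synthase genes had 1 higher and 18 lower of 33, none of them lower after scaling (median -1.88), the higher one being COR1-ECM13 with 108 against 58 insertions (log2 ratio 0.87 and no call with positions within 5 bp merged). Mitochondrial protein import genes had 2 higher and 6 lower of 20, none of them lower after scaling (median -2.19). Their pooled ratio was 5.88, and 0.288 without ACC1-TIM23. The other higher region, TIM10-STP2, held 32 against 18 insertions and lost its call without run 2 (log2 ratio 0.92), with the other background set (0.95) and with insertions of 5 or more reads (0.72).

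Ribosomal protein genes had 4 higher (3.36%, against 5.48% of all regions) and 75 lower regions of 119, against 38.2% lower over all regions, and 1 lower region after scaling. Their median was -2.19 unscaled and -0.64 scaled, against -1.81 and -0.27 over all regions. Their pooled share was 6.01% in Cst6 and 5.03% in the background, with a ratio of 0.562 when RHO5-RPS3 was left out. The higher regions were RHO5-RPS3, RPS4A-HMS2 (316 against 78), RPL15B-PKR1 (261 against 116) and RPL18B-TRF5 (111 against 69), all divergent. RPL18B-TRF5 lost its call without run 3 (log2 ratio 0.34), and the other 3 lost theirs with positions within 5 bp merged (0.61, 0.45 and 0.71).

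Cell wall genes had 2 higher (6.45%, against 5.48% of all regions) and 11 lower regions of 31 (median -0.96 against -1.81), FLO9-GDH3 (229 against 48) and FLO11-MRS1 (21 against 5, lost without run 3 at a log2 ratio of 1.71). Kinetochore and cohesin genes had 1 higher (4.35%) and 9 lower of 23 (median -1.95). The higher one was NRT1-SGO1, upstream of NRT1 and of SGO1, the shugoshin gene, with 181 against 103 insertions. It lost its call without run 3 (log2 ratio 0.71). The densest stretch of Cst6 insertions there lay 2357 to 2515 bp from the SGO1 border and 982 to 1140 bp from that of NRT1. The region also spans YOR072W, YOR072W-B and the tRNA gene SUF11. Its share of 0.479% was not called against 0.288% in Gcr1, 0.256% in Gcr2 or 0.237% in TEF1p-Tye7. Galactose genes had 1 higher (10.0%) and 3 lower of 10 (median -1.25), with GCY1 as the higher one (RIO1-GCY1, 128 against 72, log2 ratio 0.33 and no call with positions within 5 bp merged). Loci deleted or carried on plasmids had 0 higher and 1 lower of 3 (median -0.68). None of these 4 lists had a lower region after scaling.

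**Figure D3:**
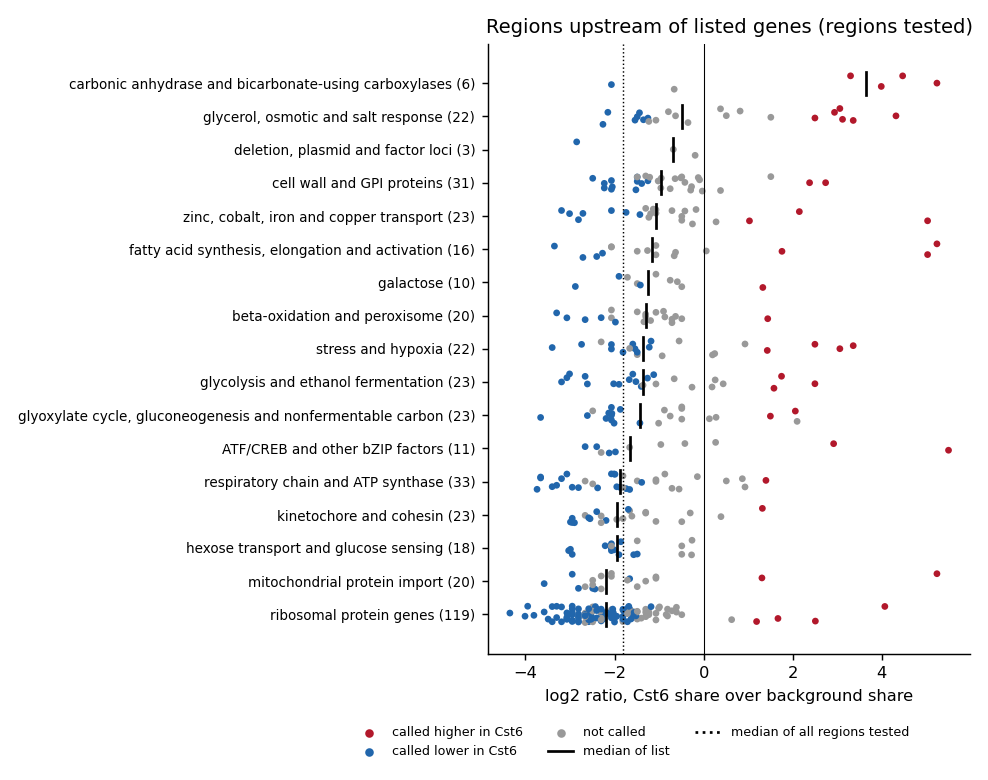
Log2 ratio of the Cst6 share over the background share for each tested region upstream of the listed genes, 1 row per list with its number of tested regions. Bars mark the median of a list and the dotted line that of all tested regions (-1.81). Carbonic anhydrase and carboxylase genes have a median of 3.64, and every other list has an unscaled median below 0.

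The fullest region of all, SCM4-YGR054W (chromosome 7, 591881 to 596697), held 1414 Cst6 insertions (3.74%, interval 3.55 to 3.94%) and 88 background insertions (0.164%), a ratio of 22.9 (18.4 to 28.7). The runs gave 2.51, 4.11 and 3.99%. Its log2 ratio was 4.50, and 1.31 with positions within 5 bp merged. It is 4817 bp long and spans YGR050C, FMP48 and MCO32, which the region table does not list, and 50% of its insertions fell 515 to 947 bp from the SCM4 border, at the far end from YGR054W. The table therefore does not tell which gene these insertions precede.

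RHO5-RPS3, upstream of the gene of a small ribosomal subunit protein, held 1246 Cst6 and 105 background insertions (ratio 16.9, 13.8 to 20.8). Of the Cst6 insertions, 50% lay 373 to 624 bp from the RPS3 border. PMA1-PMC1 separates the plasma membrane proton pump from the vacuolar calcium pump and held 1107 against 160 insertions (9.85, 8.34 to 11.7). The runs gave 4.47, 3.87 and 2.66% at RHO5-RPS3 and 3.27, 3.00 and 2.78% at PMA1-PMC1. Both calls were lost with positions within 5 bp merged (log2 ratio 0.61 and 0.90). GIP3-ISU1, upstream of the iron-sulfur scaffold ISU1, held 809 against 44 (26.2, 19.3 to 36.3), and GID8-GAT2, upstream of the GATA factor GAT2 and a subunit of the GID ubiquitin ligase, 608 against 76 (11.4, 8.96 to 14.7). Merged, their log2 ratios were 1.32 and 1.22, against 4.68 and 3.49 unmerged.

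Convergent regions, which follow the ends of both listed genes, also appeared among the leaders. AAC3-IST2 held 830 Cst6 and 70 background insertions (ratio 16.9, 13.2 to 21.9), AAT1-GFA1 642 against 21 (43.5, 28.2 to 70.8), YAP5-FLO11 579 against 34 (24.3, 17.2 to 35.4), and FOB1-PDS1 458 against 28 (23.3, 15.9 to 35.5). Each of these 4 spans a coding gene that the table does not list (YBR085C-A, SEG2, YIR018C-A and ALT2, by the gene order of the assembly R64). Merged, the log2 ratios of these 4 were 1.33, 3.86, 3.27 and 2.72, against 4.06, 5.38, 4.56 and 4.49 unmerged. AAT1-GFA1 varied between runs, at 0.508, 1.57 and 2.15%. BPL1-RPO21, a 250 bp convergent gap with no other gene, held 57 Cst6 insertions and 0 background insertions. Against a floor of 3 background insertions this was at least 27.1-fold higher. The gap follows the end of BPL1, the biotin ligase gene, and CRD1-BPL1 upstream of that gene held 4 Cst6 and 14 background insertions and was not called. Run 1 held 0.0282% there, against 0.118 and 0.206% in the other runs, and did not call it.

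Smaller regions with high ratios were MRPL22-NOP13 (242 against 16 insertions, ratio 21.5, 13.0 to 38.3), ATG18-ROG3 (240 against 9, 38.0, 19.7 to 84.1), EFT1-BAG7 (118 against 6, 28.0, 12.5 to 77.9) and RTG1-RIB2 (96 against 5, 27.3, 11.3 to 86.1). RTG1-RIB2, whose call was lost with positions within 5 bp merged (log2 ratio 2.47), is 179 bp long and precedes RTG1, a factor of the retrograde response from mitochondria to the nucleus. In ATG18-ROG3 50% of insertions lay within 149 bp of the ATG18 border, away from the start of ROG3, an arrestin gene.

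**Figure D4:**
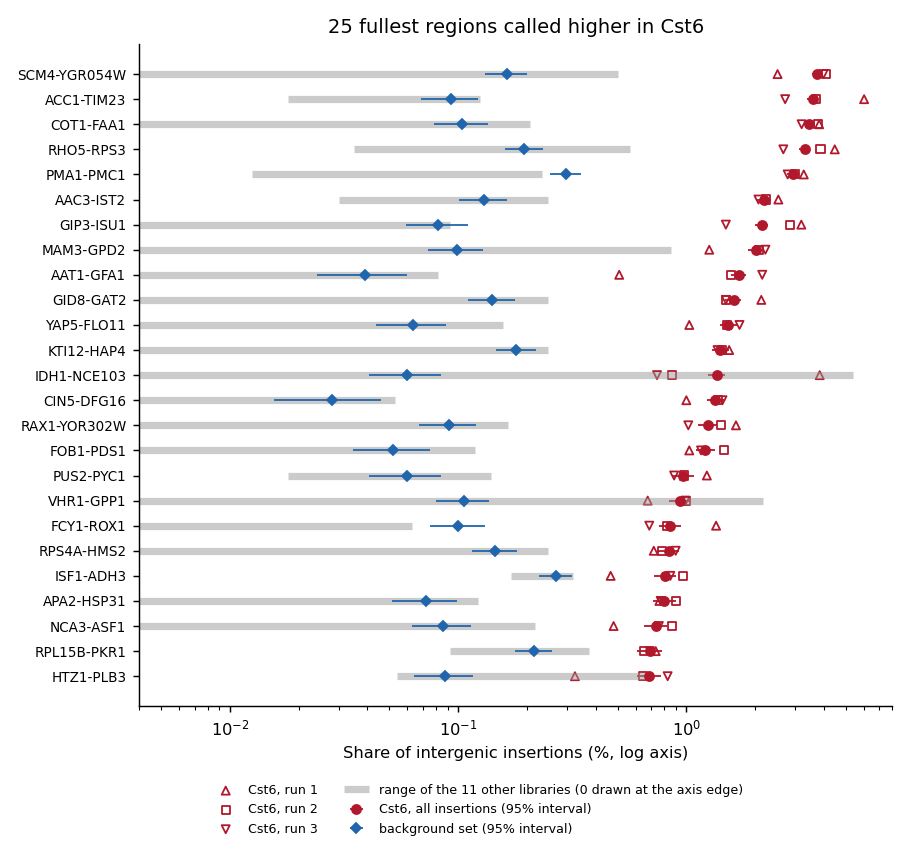
Share of intergenic insertions in the 25 fullest regions called higher, on a log axis, for the 3 runs and the whole of the Cst6 library (filled circles with 95% intervals), the range of the 11 other libraries (grey bars) and the background set (diamonds with 95% intervals). Cst6 exceeds the grey bar at most regions, and at IDH1-NCE103 and VHR1-GPP1 another library reaches 5.36% and 2.16%.

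The share of higher calls was lowest in tandem regions, a difference that was not tested. Of tested regions, 62 of 919 divergent (6.75%), 69 of 1526 tandem (4.52%) and 17 of 254 convergent ones (6.69%) were higher. Divergent regions held 49.8% of Cst6 insertions against 40.2% of the background, tandem ones 39.5% against 51.1%, and convergent ones 10.6% against 8.72%. Higher regions were longer, with a median of 1210 bp against 701 bp over the regions tested. Of the 148, 60 span a coding gene that the table does not list, 9 of the 17 convergent ones and COT1-FAA1, CIN5-DFG16 and PMA1-PMC1 among them, so the genes named at either border need not be the nearest.

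Within higher regions the densest stretch with 50% of the insertions had a median width of 106 bp (quartiles 60.5 and 165 bp). It covered a median of 8.87% of the region. This stretch is the shortest that holds 50% and was picked from the same positions. The background has no positions and other libraries were not measured so, and whether such clustering is particular to Cst6 was not tested. In 40 tandem higher regions with no other gene inside, the median insertion lay a median of 336 bp (236 to 532 bp, quartiles) from the border at the start of the downstream gene. In the 10 fullest higher regions the dense stretch was hit at 54.6 to 93.8% of its bases, with 93.8% at ACC1-TIM23. No position was listed more than 2 times in a run or 6 times in all, so hop counts at the most used positions had a ceiling. Reads had none: 87.1% of intergenic reads fell in the 148 regions, and ACC1-TIM23 alone held 23.1% of them, against 3.58% of insertions.

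Regions were then compared between Cst6 and the libraries of the same genotype over those with 10 or more insertions in a pair. Cst6 was higher in 156 of 647 regions against Gcr1 (24.1%), 159 of 794 against Gcr2 (20%) and 117 of 527 against TEF1p-Tye7 (22.2%). Cst6 was lower in 142 (21.9%), 237 (29.8%) and 70 (13.3%). Of the 148 regions above the background, 125, 131 and 105 were also called higher than Gcr1, Gcr2 and TEF1p-Tye7, 97 against all 3, and 9 against none. These counts are a description and no test, since the 148 were chosen for their high Cst6 counts. In 124 of the 148 the Cst6 share was the highest of the 12 libraries, a description only, since the other libraries differ in depth (3341 to 34942 insertions) and some in genotype. The 3 comparisons share the Cst6 library.

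Several named regions were also used by the other factors. IDH1-NCE103 held 1.36% of Cst6 insertions and 5.36% of those of the Cbf1 bHLH-ZIP construct that carries the basic region of Tye7, 4.05% of those of Cbf1 and 3.70% of those of Cbf1 bHLH-ZIP, but 0.0660% in Gcr1, 0.0118% in Gcr2 and 0% in TEF1p-Tye7. VHR1-GPP1 held 0.934% in Cst6 and 0.960, 1.49 and 2.16% in Gcr1, Gcr2 and TEF1p-Tye7, and Cst6 was lower than TEF1p-Tye7 there. ADH1-PHM7 held 0.484% in Cst6 against 2.88% in Gcr1 and 3.15% in Gcr2, both called. By contrast ACC1-TIM23 held at most 0.125% in any other library, and CIN5-DFG16 at most 0.0527%. RAX1-YOR302W and PUS2-PYC1 were called higher than all 3 libraries of the same genotype, as was IDH1-NCE103.

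Insertions outside the regions, 16630 in all, lay in coding sequence and in stretches between listed regions. Of them 28.2% were within 200 bp of a region and 13.8% within 200 bp of a higher region. The 10 fullest of 1812 intervals held 34.9% of them. The background has no positions, so these intervals were compared with the lists of the libraries of the same genotype, a comparison added after the data were seen. Cst6 was higher in 90 of 242 intervals against Gcr1 (37.2%), 72 of 265 against Gcr2 (27.2%) and 71 of 219 against TEF1p-Tye7 (32.4%). It was lower in 59, 77 and 36 of the same intervals, so lower calls outnumbered higher ones against Gcr2. Gcr1, Gcr2 and TEF1p-Tye7 had 6805, 7825 and 3852 insertions outside the regions, against 16630 in Cst6. Raw counts set side by side below therefore differ more than the shares do. The 14 fullest Cst6 intervals were looked at singly. They were chosen for their Cst6 counts, so that 13 of them were called against all 3 libraries is a description and no test.

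MAM3 (chromosome 15, 214018 to 216136) held 1253 Cst6 insertions, 7.53% of those outside regions, against 3 in Gcr1, 1 in Gcr2 and 2 in TEF1p-Tye7. Its ratio to Gcr1 was 171 (58.3 to 830). Of these insertions 50% lay in 339 bp that end 3 bp from the border with MAM3-GPD2, whose own 758 insertions do not include them and whose densest stretch lies 384 to 735 bp beyond that border. RAX1, beside RAX1-YOR302W, likewise held 337 insertions against 55, 32 and 7, with 50% in 286 bp that end 15 bp from the border. Its ratios of shares were 2.51 to Gcr1, 4.96 to Gcr2 and 11.2 to TEF1p-Tye7. SWM1 (chromosome 4, 976715 to 977225), a subunit of the anaphase-promoting complex, held 666 insertions against 12, 12 and 1, and 503 of them lay within 200 bp of a border. Both regions beside SWM1 were higher too, with 15 against 4 insertions at SWM1-EXG2.

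MTL1 (chromosome 7, 529269 to 530922), a sensor of cell wall stress, held 868 insertions against 0 in Gcr1, 1 in Gcr2 and 1 in TEF1p-Tye7. Against a floor of 3 insertions in Gcr1 this was at least 118-fold higher. Only 71 of them lay within 200 bp of a border, and 50% fell in 314 bp that begin 240 bp inside. These insertions lie in the coding interval and enter no region. LYS9, a gene of lysine synthesis, held 232 against 0, 1 and 0, SPE4, the spermine synthase gene, 222 against 1, 1 and 0, and APA2, a gene of diadenosine polyphosphate breakdown, 311 against 0, 2 and 0. At SPE4 the runs held 5, 57 and 160 of the insertions.

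The longer intervals hold several genes each. From GTT1 to the end of chromosome 9, a stretch of 15486 bp, Cst6 placed 920 insertions against 8, 20 and 6, and 50% of them fell in 158 bp at 3660 bp from the left border. From VHT1, the biotin importer of the cell surface, to ROM1 it placed 359 against 33, 36 and 33. Ratios of shares there were 4.45 to Gcr1, 4.69 to Gcr2 and 2.52 to TEF1p-Tye7. The interval from NCE103 to SIW14 was the exception, with 365 against 83, 66 and 85 insertions, or 2.19% of insertions outside regions in Cst6, 1.22% in Gcr1, 0.843% in Gcr2 and 2.21% in TEF1p-Tye7. SIR4, deleted in these cells, held 0 insertions, CST6 held 1 and ACA1 held 0, too few to check a label.

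**Figure D5:**
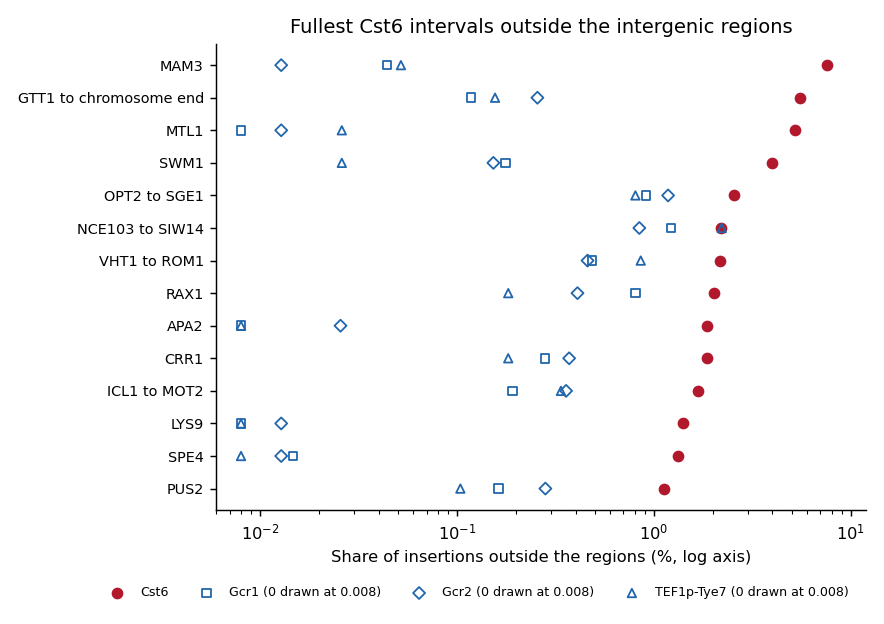
Share of the insertions outside the intergenic regions in the 14 fullest Cst6 intervals, on a log axis, for Cst6 (filled circles) and for Gcr1, Gcr2 and TEF1p-Tye7 (open symbols, 0 drawn at the left). Cst6 lies to the right of all 3 at 13 of the 14, and at NCE103 to SIW14 TEF1p-Tye7 has 2.21% beside 2.19% in Cst6.

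The regions most reduced against the background held few or no Cst6 insertions. RMD1-NTH1 held 2 Cst6 and 79 background insertions, INP51-SGN1 1 and 60, and ERG26-SWC4 2 and 60. By their gene IDs, the border genes of each of these regions lie on opposite arms of the chromosome, so each region spans a centromere. YRF1-7-ERR2 held 0 against 56, at least 13.1-fold lower against a floor of 3, and DMA2-RPC19 0 against 35, at least 8.19-fold lower. OYE3-DAP1 held 1 against 42, TPK3-MCD4 0 against 31, SEC24-PFK26 and HSP33-ERR1 0 against 29 each, and MAL31-MAL32 0 against 28. All 10 stayed lower after scaling.

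Some of these calls turned on the background. In the other background set of the series, RMD1-NTH1 held 4 insertions, YRF1-7-ERR2 held 2 and HSP33-ERR1 held 3, and with that set the log2 ratios were 0.07, -0.77 and -1.19, with no call. At RMD1-NTH1 the raw share was 0.00529% in Cst6 and 0.00604% in that set. The count of 1032 lower regions was 217 without run 3, the largest run. Libraries of the same genotype were low there too, with 0, 0.00394 and 0.0131% at RMD1-NTH1 in Gcr1, Gcr2 and TEF1p-Tye7, against 0.00529% in Cst6. INP51-SGN1 and OYE3-DAP1 were lower in Cst6 than in Gcr2 as well. Over the 24 regions lower after scaling, the median share was 0.00265% in Cst6, 0.0150% in Gcr1, 0.0197% in Gcr2, 0.0197% in TEF1p-Tye7 and 0.0873% in the background.

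The runs held 9714, 13641 and 31030 insertions, with median reads of 27.0, 18.0 and 4 per insertion. They gave similar shares to the 148 regions, 67.3, 70.5 and 68.6% of their intergenic insertions. Of the 148, 139 were above the background in all 3 runs and 95 were over 2-fold above it in all 3. Tested alone, the runs called 63, 100 and 144 regions higher, 56 of the 148 in all 3 and 6 of the 148 in none. Among the 50 fullest, the largest run share was a median of 1.57-fold the smallest and over 2-fold in 17. Positions recurred between runs in the higher regions (45.2% of the run 1 positions there were also in run 2) and less so in other regions (3.29%) and outside the regions (24.4%). The higher regions also have the densest positions, and what this adds to the recurrence was not tested. Whether runs are separate cultures, digests or sequencing lanes is not stated, so they were not used as replicates.

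At the threshold, the ratios just inside were 2.03 each at GAA1-XDJ1, ADH6-FET4 and HPF1-ZPS1. Just outside were GLY1-IES6 at 2.01, which fell short of 2 once 1 insertion was added to each count, COS6-YRF1-3 at 2.00 and PUT4-CIN1 at 1.99. The higher calls at GAA1-XDJ1, ADH6-FET4 and HPF1-ZPS1 were each lost without 1 run (run 2 at a log2 ratio of 0.55, run 3 at 0.89 and run 1 at 0.61). ADH6-FET4 also lost its call with positions within 5 bp merged (0.53).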

How the data were processed

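Calling cards in yeast map a factor by where a Sir4 fusion directs Ty5. DNA was cut in 3 digests (HinP1I, HpaII and TaqαI), followed by inverse PCR and sequencing, per the labels' protocols, and reads were mapped with Novoalign, per the submitters' processing notes. Its version, the genome build and filters are not named. The deposited list counts reads at each insertion, and the deposited region table gives insertion counts (hops) for the library and the background, as the authors made them. The authors also deposited the fraction of all insertions in each region, a Poisson p-value, and a coverage-like signal of hops per 100000 insertions, and these p-values and signals were recomputed to the same values in 4532 of 4532 regions. Counts of widened regions reach 200 bp beyond each border.

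Shares here are of intergenic insertions. Fisher's exact test (scipy 1.17.1, Python 3.11.15), two-sided, was adjusted by the Benjamini-Hochberg method over 2699 regions with 5 or more hops in Cst6 or in the background. A call needed an adjusted p under 0.05 and a ratio past 2 with 1 hop added to each count. Intervals are exact at 95% (Clopper-Pearson for shares, conditional for ratios), and bounds against 0 use a floor of 3 counts. Pairs of libraries needed 10 hops in all. The Cst6 list falls into 3 sorted blocks, called runs. The steps were tested on simulated counts, drawn independently with some regions raised and some lowered. The simulation had no positions repeated between runs and no shift of the other regions as large as here, so it does not cover these features. Depth was 54385 insertions and 4263143 reads, with a median of 7 reads per insertion.

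Named were the 20 higher regions with the highest lower bound of the ratio, the 10 fullest, the 10 lower regions with the lowest upper bound, called regions upstream of listed genes, and 3 on each side of the ratio threshold. Some regions that this rule names and the counts include are not reported here. Other regions and all intervals outside the regions were named after their values were seen. The comparisons and the 17 gene lists were chosen with earlier results of these data known. Names and gene order come from the assembly R64, which matched 4656 of 4657 gene IDs. Alternatives changed the tested regions, denominator, borders, background, test, thresholds, pseudocount, insertions counted and runs.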

Additional observations from a re-analysis of the deposited data

How the results depend on the processing

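The 148 higher regions numbered 118 to 169 under the alternatives, except for 286 with shares taken outside every higher region and 81 at a ratio of 4. Without 1 run they numbered 109 to 149. All 148 remained called with each position counted once, and 134 with the other background set, 117 with insertions of 5 or more reads and 116 with positions within 5 bp merged. The 1032 lower regions depended on the settings: 226 when Cst6 itself needed 5 hops, 526 with shares outside the 10 fullest regions, 24 outside every higher region, 589 at an adjusted p of 0.01, 534 with 5 or more reads, 506 with each position once and 15 with positions within 5 bp merged. Without 1 run they ranged from 217 to 902. At RMD1-NTH1 the log2 ratio was 0.07 against the other background set, with 2 and 4 insertions, no call, and a raw share still lower in Cst6, so the sign comes from the insertion added to each count. Merging, read minimums and single counting applied to Cst6 alone, since the background has no positions.

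The difference in intergenic share, 5.50 percentage points, lay between 1.08 (positions merged) and 7.01 (5 or more reads). It was not computed for widened regions, where background counts overlap. The carboxylase list, tried under all alternatives after the data were seen, kept a count of 4 except for 5 with widened regions and 2 with positions merged. Motif shares were not run. No paired analysis was possible because there is 1 Cst6 library and the background has no replicates. The ceiling on lines per position limits counts in the densest stretches.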

Other observations

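Some further higher regions, picked after their values were seen, lie upstream of genes of transcription regulators. No list of such genes was counted, so these are single values. KTI12-HAP4, upstream of HAP4, the activating subunit of the factor that turns on respiratory genes, held 534 Cst6 and 97 background insertions, a ratio of 7.84 (6.30 to 9.84), with 1.54, 1.43 and 1.37% in the 3 runs. DUS3-SFP1, upstream of SFP1, a regulator of ribosome genes, held 82 against 17 (6.87, 4.04 to 12.4). HAA1-SUT2 held 82 against 20 (5.84, 3.55 to 10.1). HMS1-EXO1 and PRI2-PHD1, upstream of the filamentation factors HMS1 and PHD1, held 105 against 40 (3.74, 2.57 to 5.52) and 96 against 40 (3.42, 2.34 to 5.07). SOK2-SPO20, upstream of SOK2, a relative of PHD1, held 148 against 65 (3.24, 2.41 to 4.41), with 0.155, 0.300 and 0.510% in the runs.

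Not all of these regions were called against the libraries of the same genotype. FRS2-GAT1, upstream of the nitrogen factor GAT1, held 100 Cst6 and 46 background insertions (3.10, 2.16 to 4.49), but 0.265% in Cst6 stood beside 0.336% in Gcr1, 0.394% in Gcr2 and 0.145% in TEF1p-Tye7, with no call against any of them. HMS1-EXO1 was not called against Gcr1 (0.278% in Cst6, 0.210% in Gcr1). KTI12-HAP4 held 1.41% in Cst6 against 0.0900, 0.114 and 0.0920% in Gcr1, Gcr2 and TEF1p-Tye7 and was called against all 3.

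Among other higher regions picked in that way, ADE2-AFI1, upstream of the adenine synthesis gene ADE2, held 79 against 6 insertions (18.8, 8.24 to 52.6). APA2-HSP31, beside the full APA2 interval, held 303 against 39 (11.1, 7.91 to 15.9), and VMA7-MTL1, beside the full MTL1 interval, 124 against 51 (3.46, 2.48 to 4.90). RPO21, beside BPL1-RPO21, held 156 Cst6 insertions, 105 of them within 200 bp of a border, against 0 in each of Gcr1, Gcr2 and TEF1p-Tye7.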
